A study of Mus musculus with 24 samples.

Results

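Livers of adult mice that had 60 min of partial hepatic ischemia were set against livers of adult mice that had 30 min of it, on 3 arrays of each time, 6 of the 24 arrays of the study. Partial hepatic ischemia closes the blood supply of some lobes of the liver while the rest stay perfused. The 6 arrays were chosen by the age and the time in their titles alone, and all 26180 probe sets were compared. Adult mice were 12 to 14 months old, and the tissue was the median and left lobes, which were put into an RNA-preserving solution straight after dissection. The young mice of the same study, set beside the adults further on, were 4 to 5 weeks old, with 3 arrays at 60 min and 3 at 30 min. Sham-operated mice of each age gave the scale. The strain, the sex, the feeding state and the hour of tissue collection are not given in the labels, and no mouse is said to carry an allele or to have had a drug. The titles write the times as 60/0 and 30/0, with no word on the second number. The labels describe 3 mice per group, so each array is taken as 1 mouse.

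Each deposited value is a linear ratio, in which 1 stands for the mean over the 3 sham mice of that age. The sham scale cancels when 60 min is set against 30 min. The ratios hold no level, so they cannot show whether hepatocyte markers were abundant, and values of different genes are never ranked by abundance here.

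Tissue cut off from blood loses oxygen and fuel, and cells short of oxygen are known to cut back costly work such as protein synthesis. The liver also carries a strong circadian clock. In it, the activators BMAL1 (gene Arntl), CLOCK and NPAS2 switch on genes through E-boxes, the PER and CRY proteins hold the activators back, and the repressors REV-ERBα and REV-ERBβ (genes Nr1d1 and Nr1d2) compete with ROR proteins to silence Arntl and Nfil3. The clock passes its rhythm to metabolism through the transcription factors DBP, TEF and HLF, which share their binding sites with the repressor NFIL3.

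One array stood apart from its group over all probe sets. Adult 30 min replicate 3 differed from 30 min replicates 1 and 2 by a root mean square of 0.391 and 0.320 on the log2 scale over all probe sets, whereas those 2 arrays differed from each other by 0.193. It was 0.239 to 0.285 from the adult sham arrays and 0.359 to 0.456 from the 60 min arrays. The 60 min arrays were 0.246 to 0.308 from each other and 0.203 to 0.271 from 30 min replicates 1 and 2. Many results are given with and without this array. Those given only with it may still rest on it in part. The log2 value of 60 over 30 min for Hsp90aa1, for example, was -0.88 with this array and -0.61 without it.

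No gene passed the test between 60 and 30 min. In limma, 0 of 26180 probe sets (0%) had an adjusted p under 0.05, and the lowest adjusted p was 0.629. At an unadjusted p under 0.05 there were 2063 probe sets (7.88%), of which 570 (2.18%) were higher and 1493 (5.7%) lower at 60 min. The 3 arrays at 60 min lay wholly above or wholly below the 3 arrays at 30 min for 2821 probe sets (10.8%), 938 higher (3.58%) and 1883 lower (7.19%). These percentages are the background for every count below. After quantile normalization the unadjusted counts were 192 higher and 215 lower, nearer to balance. Across all probe sets the median log2 value of 60 over 30 min was -0.03, and 57.4% were below 0. Without 30 min replicate 3 the median was -0.02, 55.6% were below 0, and arrays did not overlap for 7.1% higher and 11.1% lower. Differences below are therefore values and not calls. The adjusted p is 0.629 for each gene given with a log2 value, unless another is printed, the error of a log2 value is limma's standard error, and n = 3 arrays per time.

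Only 28 probe sets both differed by more than 1 on the log2 scale and had arrays that did not overlap, 13 higher and 15 lower at 60 min. The 24 of them with a symbol stand for 20 genes, and 6 of these 20 are clock genes: Dbp, Nr1d1 and Nr1d2 were higher, and Nfil3, Cry1 and Arntl lower, at 60 min.

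Promoter sequence is shown for 4 clock genes because the windows hold a motif that clock proteins are known to bind. Each window holds 300 bases around a gene start in RefSeq (GRCm38.p6), most of them upstream of it, and 21 windows were found for 16 of the 19 measured clock genes. Capitals mark the E-box CACGTG, which reads the same on both strands, in Tef and Cry1, and the ROR and REV-ERB core TAGGTCA, or TGACCTA on the other strand, in Arntl and Nfil3. The D-box TTATGTAA, or TTACATAA, to which DBP, TEF, HLF and NFIL3 bind, was searched as well.
Tef, chr15:81802423-81802722, plus strand: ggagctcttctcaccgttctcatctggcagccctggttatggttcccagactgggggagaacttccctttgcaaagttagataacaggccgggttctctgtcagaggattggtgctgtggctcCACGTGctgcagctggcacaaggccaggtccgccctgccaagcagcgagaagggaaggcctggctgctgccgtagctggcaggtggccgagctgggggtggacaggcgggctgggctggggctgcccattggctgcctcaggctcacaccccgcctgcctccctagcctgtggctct
Cry1, chr10:85185005-85185304, minus strand: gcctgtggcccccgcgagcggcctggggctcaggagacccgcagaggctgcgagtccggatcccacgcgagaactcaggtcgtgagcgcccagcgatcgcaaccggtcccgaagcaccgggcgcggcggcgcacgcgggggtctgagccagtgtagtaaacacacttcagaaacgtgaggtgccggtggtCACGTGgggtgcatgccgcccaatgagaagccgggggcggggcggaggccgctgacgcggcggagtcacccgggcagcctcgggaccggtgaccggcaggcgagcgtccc
Arntl, chr7:113207261-113207560, plus strand: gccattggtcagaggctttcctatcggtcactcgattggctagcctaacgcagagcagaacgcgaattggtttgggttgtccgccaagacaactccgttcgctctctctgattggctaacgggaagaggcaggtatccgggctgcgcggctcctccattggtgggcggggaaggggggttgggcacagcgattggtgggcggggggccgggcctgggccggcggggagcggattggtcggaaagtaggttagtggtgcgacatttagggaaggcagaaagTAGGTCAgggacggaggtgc
Nfil3, chr13:52980990-52981289, minus strand: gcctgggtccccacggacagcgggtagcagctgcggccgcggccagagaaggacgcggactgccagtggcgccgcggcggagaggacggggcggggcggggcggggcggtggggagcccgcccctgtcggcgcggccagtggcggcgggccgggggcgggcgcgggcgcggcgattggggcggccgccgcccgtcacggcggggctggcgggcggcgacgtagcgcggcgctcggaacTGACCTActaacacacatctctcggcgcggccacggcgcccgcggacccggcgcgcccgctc
The E-box was in 6 of the 21 clock windows, in Bhlhe41, Ciart, Cry1, Per1 and Tef, and in 7.15% of all 32851 windows of the table. The ROR and REV-ERB core was in 2 of the 21, in Arntl and Nfil3, and in 2.61% of all windows. The D-box was in 1 of the 21, in Per3, and in 0.94% of all. No matches of different motifs shared bases. For Arntl only the second of 2 windows held the match, and for Tef both of 2 windows held one, of which the first by position is printed. The windows of Nr1d1 and Dbp held none of these exact letters. A match is a description of the sequence, and binding was not measured.

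Of the output factors of the clock, Dbp and Tef were higher and Nfil3 was lower at 60 min. Dbp, which drives detoxification genes in liver, had ratios of 2.84, 2.14 and 0.574 in 60 min livers, against 0.194, 0.160 and 0.143 in 30 min livers. The log2 value was 3.20 ± 0.96, and the arrays did not overlap. The sham arrays were at 1.61, 0.146 and 1.24, so sham replicate 2 was as low as the 30 min arrays, and 2 of the 3 arrays at 60 min were above every sham array. Tef, a factor of the same family, had ratios of 1.36, 1.12 and 0.800 at 60 min, against 0.595, 0.527 and 0.491 at 30 min, a log2 value of 1.00 ± 0.32. Hlf, the third member, was higher by 0.40 ± 0.21, with arrays that overlapped. Nfil3, the repressor at the same sites, went the other way, with ratios of 0.326, 0.434 and 0.789 at 60 min, against 1.10, 1.23 and 1.55 at 30 min. Its log2 value was -1.41 ± 0.44, and the arrays did not overlap. The sham arrays were at 1.33, 0.531 and 1.14 for Tef and at 0.789, 1.54 and 0.674 for Nfil3. Sham replicate 2 lay within the 30 min range for both. Of the 60 min arrays, replicate 3 was nearest to the 30 min level in all 4 genes.

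The REV-ERB genes and Cry2 were higher at 60 min. Nr1d1 had ratios of 2.27, 2.09 and 1.97 at 60 min, against 0.644, 0.641 and 0.524 at 30 min. The spread within either time was small next to the gap, a log2 value of 1.81 ± 0.51. Other adult groups spread more widely, with sham arrays at 1.39, 0.594 and 1.02 and 90 min arrays at 0.993, 0.471 and 1.98. Nr1d1 was the 1 gene that an alternative fit called: with the 6 arrays alone its adjusted p was 0.00812, against a range of 0.00812 to 1 over all alternatives. Nr1d2, its close relative, had ratios of 1.33, 1.01 and 0.748 at 60 min, against 0.384, 0.404 and 0.456 at 30 min (log2 1.28 ± 0.46). Cry2, a repressor of CLOCK and BMAL1, had ratios of 1.27, 1.21 and 0.876, against 0.690, 0.821 and 0.711 at 30 min (log2 0.58 ± 0.20). The sham arrays were at 1.23, 0.498 and 1.27 for Nr1d2, with replicate 2 near the 30 min range. For Cry2 they were at 1.22, 0.870 and 0.914, all above the 30 min range. Bhlhe40, an E-box repressor that hypoxia also induces, was higher by 0.71 ± 0.33, and its arrays overlapped through 30 min replicate 3. Without that array they did not overlap and the log2 value was 1.00.

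Arntl, Npas2 and Cry1 were lower at 60 min. Arntl had ratios of 0.455, 0.606 and 0.988 at 60 min, against 1.06, 1.31 and 1.72 at 30 min, a log2 value of -1.04 ± 0.37. Npas2, an alternative partner of BMAL1, had ratios of 0.872, 0.834 and 0.981, against 1.22, 1.21 and 1.12 at 30 min (log2 -0.41 ± 0.16). Cry1 had ratios of 0.288, 0.584 and 0.518, against 0.873, 0.952 and 1.24 at 30 min (log2 -1.19 ± 0.40). All 3 of these genes had arrays that did not overlap. Clock itself was at -0.37 ± 0.17 and Rora at -0.23 ± 0.18 (adjusted p = 0.725), both with overlap.

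Of the 19 clock genes measured, 6 (31.6%) lay wholly higher at 60 min and 5 (26.3%) wholly lower, where all probe sets gave 3.58% and 7.19%. The sixth of the higher ones was Ciart, at 0.21 ± 0.17 (adjusted p = 0.72). None passed, and the counts were 7 and 5 without 30 min replicate 3, where all probe sets gave 7.1% and 11.1%. The period genes stood closer together, with log2 values of 0.43 ± 0.26 for Per1 (adjusted p = 0.65), 0.19 ± 0.12 for Per2 (adjusted p = 0.656) and 0.05 ± 0.09 for Per3 (adjusted p = 0.892), all overlapping. Clock genes other than the rule's Dbp, Nr1d1, Nfil3, Per1 and Bhlhe40 were named after their values were seen.

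**Figure D1:**
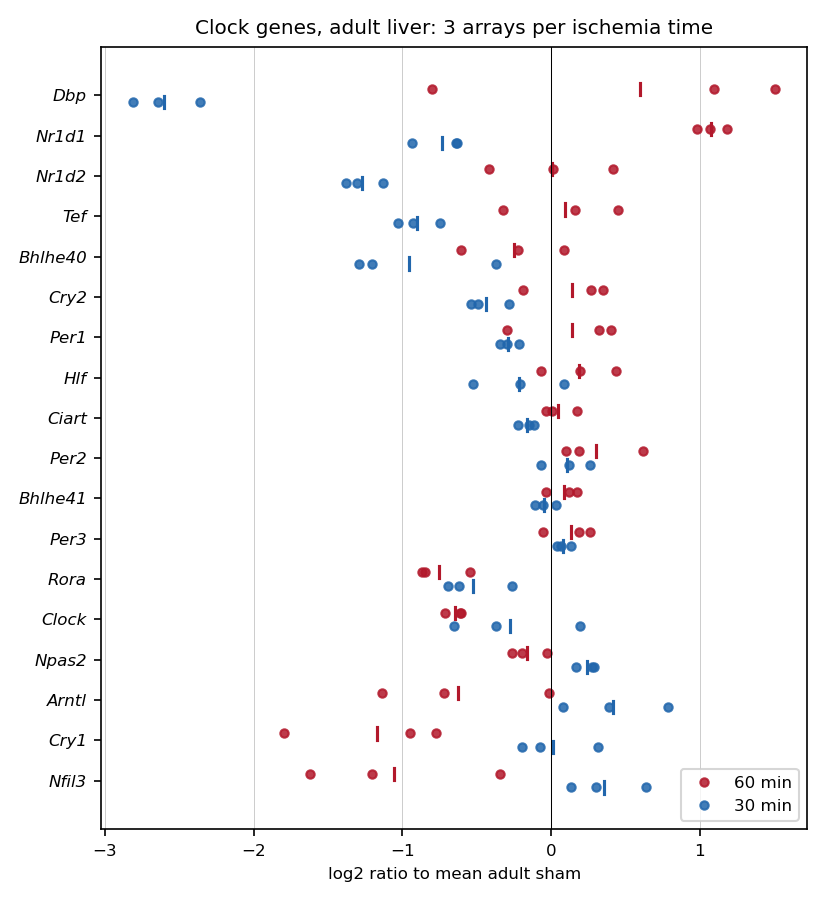
Log2 ratio to the mean of adult sham liver (horizontal axis) of 18 clock genes, ordered by the difference. Each point is an array, 3 at 60 min in red above 3 at 30 min in blue, and short bars are group means. Dbp, Nr1d1, Nr1d2, Tef, Cry2 and Ciart have all red points right of all blue points, and Arntl, Cry1, Npas2 and Nfil3 all red points left of them.

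Clock gene values also moved with a number in the sample titles. Each title ends in a code of 2 parts, and the second part was 4 on the 3 adult 60 min arrays and 3 on the 3 adult 30 min arrays. Its meaning is not given in the labels, and within the adult contrast it cannot be told apart from the ischemia time. In the other adult arrays, Dbp was at ratios of 0.201 and 0.189 in the 2 arrays at 90 min numbered 2, and at 2.41 in the 1 numbered 6. The adult sham arrays, all numbered 5, were at 1.61, 0.146 and 1.24. In young liver Dbp was at 0.110, 0.216 and 0.254 in the 60 min arrays, numbered 4, against 0.108, 0.123 and 0.114 in the 30 min arrays, numbered 3, 2 and 3. The young sham arrays numbered 5 were at 0.939 and 1.93, and the 1 numbered 1 was at 0.130. Among adult arrays numbered below 5 the 60 min arrays were thus the highest, and sham replicate 2 was the lowest of the adult arrays numbered 5 or 6. Young ratios have the young sham mean as their scale and are not ranked with the adult ones. With the number as a covariate over all 24 arrays, the log2 value of 60 over 30 min was 2.36 for Dbp, 1.41 for Nr1d1 and -0.71 for Arntl. The number does not vary within either adult time, so its slope came from the other groups in which it varies. These values therefore cannot separate the number from the ischemia time, and the part of the code in the difference was not tested.

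**Figure D2:**
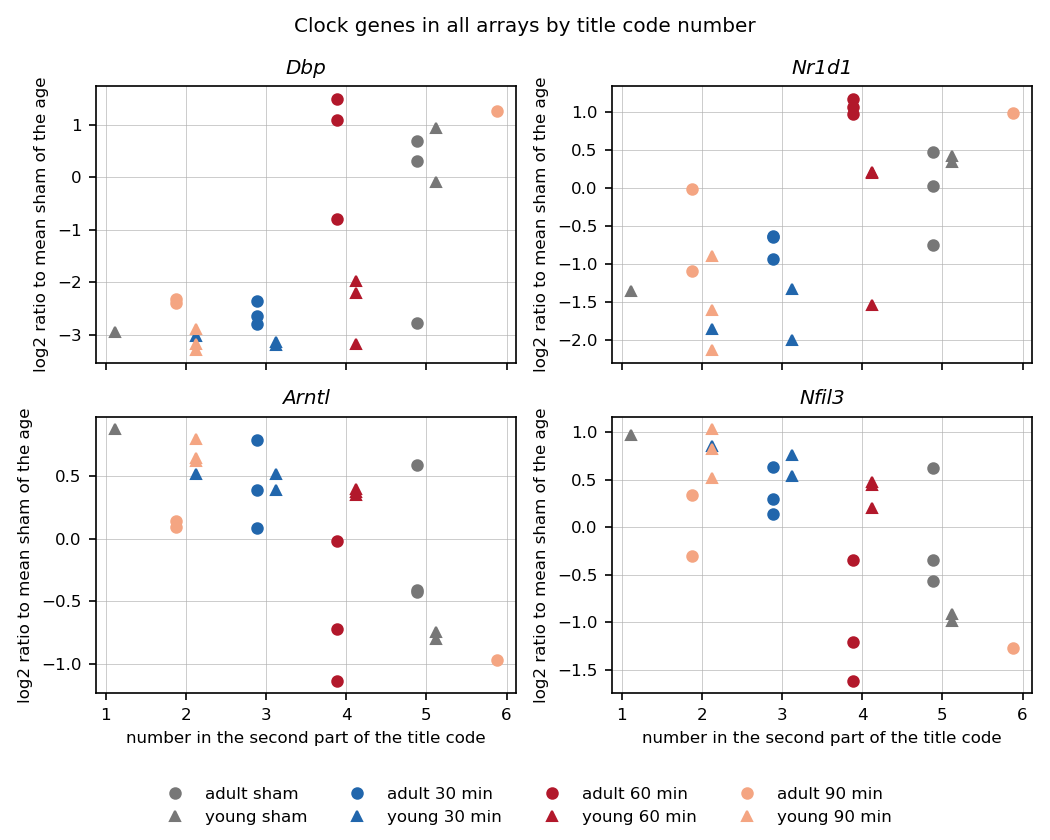
Log2 ratio to mean sham liver at that age (vertical axes) of Dbp, Nr1d1, Arntl and Nfil3 on all 24 arrays, against the number that ends the sample title. Circles are adult and triangles young mice, coloured by sham or ischemia time. Adult 60 min arrays, numbered 4, have Dbp ratios of 0.574 to 2.84, against 0.143 to 0.194 in adult 30 min arrays, numbered 3.

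Beyond the clock, the genes with the lowest p at 60 min over 30 min were mixed in kind. Tbc1d8, a Rab GTPase-activating protein family member, had ratios of 1.14, 1.12 and 1.11 at 60 min, against 0.840, 0.879 and 0.775 at 30 min (log2 0.44 ± 0.11). Its arrays did not overlap. Moxd1, a monooxygenase-like protein, showed the largest log2 value of the non-overlapping genes, 3.37 ± 0.89, with ratios of 0.555, 0.959 and 1.25, against 0.0645, 0.0592 and 0.159 at 30 min. Its sham arrays spanned a still wider range, at 0.0619, 0.0586 and 2.88. Htra3, a secreted serine protease, was higher by 0.43 ± 0.12, Fam219b by 0.29 ± 0.09, and Zkscan5, a zinc finger protein, by 0.48 ± 0.14.

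The lowest p values of all were for genes lower at 60 min, several of them hepatocyte genes. Lect2, a secreted liver protein, had ratios of 0.540, 0.600 and 0.560 at 60 min, against 0.840, 0.990 and 1.31 at 30 min (log2 -0.86 ± 0.16). Gulo, the last enzyme of vitamin C synthesis in mice, was at 0.716, 0.778 and 0.621, against 0.902, 1.01 and 1.11 at 30 min (log2 -0.52 ± 0.12). At 30 min replicate 3 was the highest array for both genes. Without it the log2 value was -0.69 for Lect2 and -0.45 for Gulo. Cyp1a2, a caffeine-metabolizing cytochrome P450 of pericentral hepatocytes, was at -0.41 ± 0.09. Lgalsl, a galectin-like protein, was at -1.26 ± 0.26, Nid2, a basement membrane protein, at -0.67 ± 0.16, Mrpl21, of the mitochondrial ribosome, at -0.44 ± 0.09 and Lins1 at -0.32 ± 0.08.

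Glucocorticoid and gluconeogenesis lists were mixed, while most fatty acid oxidation genes were below 0. Of 21 glucocorticoid-responsive genes, 11 were above and 10 below 0, 3 wholly higher and 2 wholly lower, with a median of 0.17, and 0.31 without 30 min replicate 3. Fkbp5, a glucocorticoid-induced chaperone partner, was at 0.71 ± 0.37 with overlap. Of 16 gluconeogenesis and insulin response genes, 7 were above and 9 below 0, with a median of -0.01, 0.04 without that array and 0.15 after quantile normalization. Sds, serine dehydratase, was at 0.35 ± 0.29 with overlap (adjusted p = 0.74). Igfbp1, a secreted IGF-binding protein that fasting and stress induce and insulin suppresses, had ratios of 0.634, 0.487 and 0.407 at 60 min, against 1.63, 1.38 and 1.82 at 30 min. The sham arrays were at 0.682, 1.62 and 0.702, so sham replicate 2 lay within the 30 min range and the other 2 sham arrays above the 60 min range. The log2 value was -1.67 ± 0.42, and -1.58 without 30 min replicate 3. Pdk4, which spares glucose by blocking pyruvate oxidation, had ratios of 0.610, 1.28 and 0.802, against 1.41, 1.40 and 3.36 at 30 min (log2 -1.13 ± 0.40). It was -0.71 without 30 min replicate 3. Cyp4a10, a PPARα target that oxidizes fatty acids, was at 0.648, 0.654 and 0.596, against 1.16, 1.12 and 1.26 at 30 min (log2 -0.90 ± 0.33). Its sham arrays were at 1.12, 1.39 and 0.495, a range that takes in all arrays of both times. Tat, tyrosine aminotransferase, a glucocorticoid-induced enzyme of hepatocytes, was at -0.63 ± 0.27 without overlap. Of the 30 fatty acid oxidation genes, 26 were below 0 and 10 (33.3%) did not overlap, with a median of -0.27, and -0.15 without 30 min replicate 3.

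Lipid synthesis lists had the lowest medians of the 34 pathway lists. Of the 19 cholesterol synthesis genes, 18 were below 0 and 9 (47.4%) wholly lower at 60 min, with a median log2 value of -0.52, against -0.03 over all probe sets. Mvd, of the mevalonate pathway, had ratios of 0.460, 0.767 and 0.683 at 60 min, against 0.988, 1.07 and 1.44 at 30 min (log2 -0.89 ± 0.35). Hmgcs1, the HMG-CoA synthase of that pathway, was at -0.73 ± 0.28. Sham arrays differed much in this list, with array medians of -0.45, 0.09 and 0.27, beside 60 min medians of -0.56, -0.51 and -0.83. Of the 17 fatty acid synthesis genes, 15 were below 0 and 7 (41.2%) wholly lower, with a median of -0.42. Acly, which makes cytosolic acetyl-CoA, had ratios of 0.516, 0.599 and 0.484, against 0.710, 0.910 and 1.22 at 30 min (log2 -0.80 ± 0.31). Srebf1, the lipogenic transcription factor SREBP1, had ratios of 0.689, 0.812 and 0.435, against 1.04, 0.875 and 1.39 at 30 min (log2 -0.79 ± 0.25). Without 30 min replicate 3 the medians of the 2 lists were -0.41 and -0.33. No member passed in either list.

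**Figure D3:**
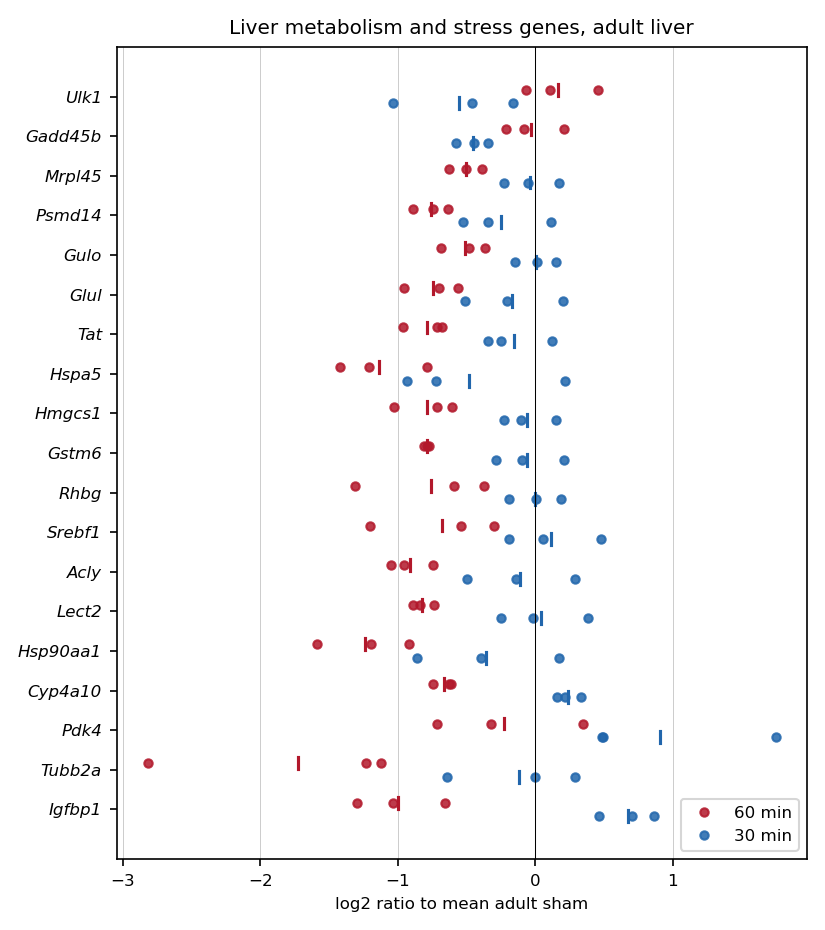
Log2 ratio to the mean of adult sham liver (horizontal axis) of 19 named genes of metabolism, stress and protein turnover, ordered by the difference. Each point is an array, 3 at 60 min in red above 3 at 30 min in blue, and short bars are group means. Igfbp1 and Cyp4a10 lie left of 0, the sham mean, at 60 min and right of it at 30 min, and the rightmost blue point is replicate 3 for most genes. Sham arrays are not drawn, and for Cyp4a10 they spanned ratios of 0.495 to 1.39.

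Mitochondrial genes were low as a block, by small amounts. All 65 oxidative phosphorylation genes measured, subunits of the respiratory chain and ATP synthase, were below 0 at 60 over 30 min, from -0.50 to -0.11 with a median of -0.33, and 17 (26.2%) were wholly lower. Ndufb5, of complex I, had ratios of 0.724, 0.678 and 0.524, against 0.765, 0.840 and 1.10 at 30 min (log2 -0.49 ± 0.19). The array medians of the list were -0.22, -0.31 and -0.78 at 60 min, against -0.23, -0.14 and 0.06 at 30 min, so 60 min replicate 3 and 30 min replicate 3 stood furthest apart and the groups overlapped. Without 30 min replicate 3 all 65 were still below 0, with a median of -0.25, and without 60 min replicate 3 the median was -0.15. It was -0.19 after quantile normalization. Of the 72 mitochondrial ribosomal protein genes, 71 were below 0 and 20 (27.8%) wholly lower, with a median of -0.25, and -0.15 without that array. Mrpl45 of this list had a log2 value of -0.47 ± 0.13. Of the 23 cytosolic ribosomal protein genes, 22 were below 0 with a median of -0.30, and -0.10 without 60 min replicate 3, but 0 were wholly lower.

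Detoxification genes were mostly lower at 60 min. Of 37 glutathione and antioxidant genes, 35 were below 0 and 16 (43.2%) wholly lower, with a median of -0.27, and -0.13 after quantile normalization. As many as 19 were wholly lower without 30 min replicate 3, where the background was 11.1%. Gstm6, a glutathione S-transferase, had ratios of 0.579, 0.586 and 0.571 at 60 min, against 0.822, 0.934 and 1.16 at 30 min (log2 -0.73 ± 0.19). Its relatives Gstm3 and Gstm2 were at -0.60 ± 0.22 and -0.57 ± 0.22, and probes of this gene family may read each other's transcripts. Of 39 cytochrome P450 genes, 32 were below 0 and 11 (28.2%) wholly lower, with a median of -0.21, and -0.10 after quantile normalization. Cyp2b10, the target of the xenobiotic receptor CAR, was below all 3 sham arrays at both times, at 0.0738, 0.0702 and 0.0662 in 60 min livers, against 0.128, 0.217 and 0.0422 in 30 min livers, and the arrays overlapped. Of 12 urea cycle and ammonia genes, 11 were below 0 and 4 (33.3%) wholly lower. Among them Glul, the glutamine synthetase of pericentral hepatocytes, was at -0.57 ± 0.18, Oat, ornithine aminotransferase, at -0.64 ± 0.17 and Rhbg, an ammonium transporter, at -0.76 ± 0.23.

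Lists of protein folding, secretion and breakdown had medians that moved with 1 array. Of 41 proteasome genes, 39 were below 0 and 10 (24.4%) wholly lower, with a median of -0.31, and -0.15 without 30 min replicate 3. Psmd14, the deubiquitinating lid subunit, had ratios of 0.598, 0.644 and 0.539 at 60 min, against 0.694, 0.790 and 1.08 at 30 min (log2 -0.51 ± 0.18). The array medians of the list were -0.36, -0.53 and -0.79 at 60 min, against -0.50, -0.31 and 0.06 at 30 min. All 20 genes of protein translocation into the endoplasmic reticulum were below 0, yet 2 (10%) were wholly lower, and the median was -0.39, and -0.17 without that array. Srp54a, the GTPase subunit of the signal recognition particle and a gene with near-identical copies in mice, had ratios of 0.294, 0.229 and 0.161, against 0.267, 0.367 and 1.48 at 30 min. Its log2 value was -1.25 ± 0.43, and -0.50 without the array at 1.48. The 23 endoplasmic reticulum chaperone and stress genes had a median of -0.33, and -0.10 without it, with Hspa5, the chaperone BiP, at 0.374, 0.581 and 0.431 in 60 min livers, against 0.523, 0.606 and 1.16 in 30 min livers.

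Of 21 heat shock chaperones, 17 were below 0 and 4 (19%) wholly lower, with a median of -0.28, and -0.13 without 30 min replicate 3. Hsp90aa1, the inducible cytosolic HSP90, had ratios of 0.332, 0.437 and 0.528 at 60 min, against 0.552, 0.761 and 1.13 at 30 min (log2 -0.88 ± 0.32). Hspa1a, inducible HSP70, overlapped between the times, at 1.26, 1.38 and 0.729, against 0.888, 0.941 and 1.09 at 30 min. Tubb2a, a β-tubulin, had one of the widest gaps outside the clock, with ratios of 0.142, 0.425 and 0.459, against 0.643, 0.999 and 1.23 at 30 min (log2 -1.61 ± 0.51, and -1.41 without 30 min replicate 3). Tuba4a, an α-tubulin, was at -0.65 ± 0.26, and 4 of 11 tubulins (36.4%) were wholly lower. In autophagy, Ulk1, the kinase that starts it, was higher, at 1.37, 1.08 and 0.957, against 0.727, 0.893 and 0.488 at 30 min (log2 0.72 ± 0.27), while the 31 genes of the list had a median of -0.04, which was 0.01 after quantile normalization. With all arrays 4 of the autophagy genes (12.9%) were wholly higher and 3 (9.68%) wholly lower. Without 30 min replicate 3 the median was 0.08, with 20 above 0, 9 wholly higher and 3 wholly lower. The background without that array was 7.1% higher and 11.1% lower.

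**Figure D4:**
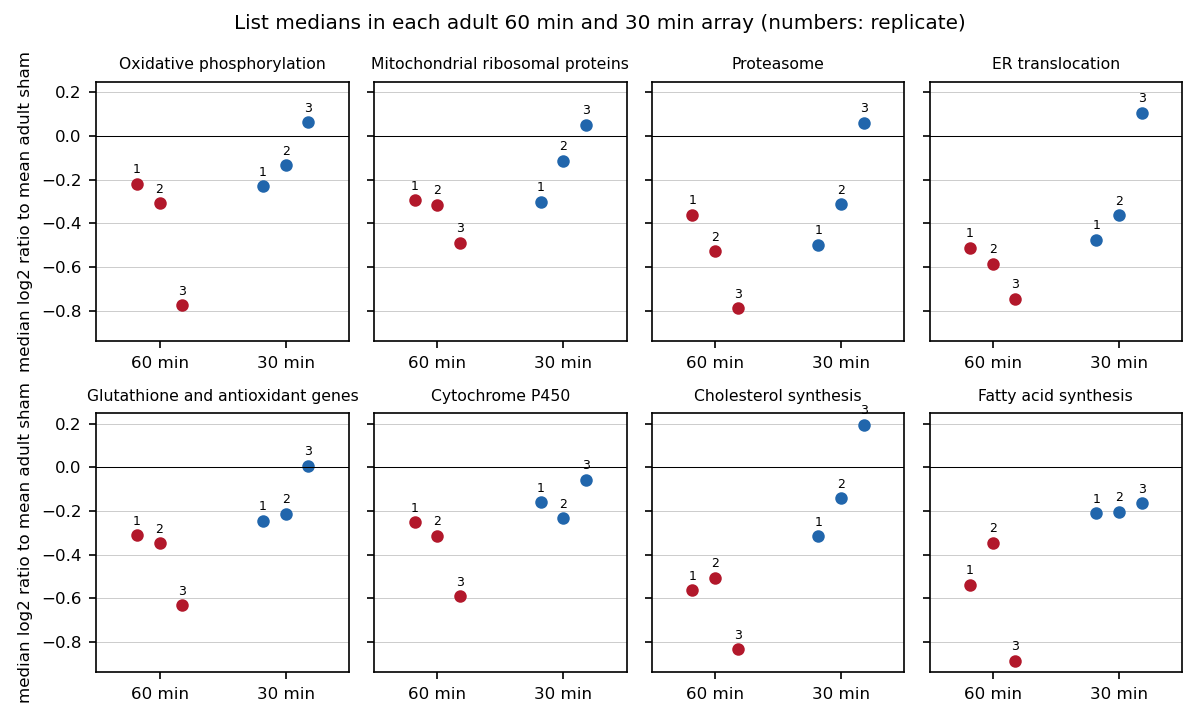
Median log2 ratio to the mean of adult sham liver (vertical axis) over the genes of 8 lists in each adult array, 60 min in red and 30 min in blue, with the replicate number beside each point. In every panel the highest array is 30 min replicate 3 and the lowest is 60 min replicate 3.

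The immediate early list and the chemokine and NF-kB list had medians just above 0. The 36 immediate early genes had a median log2 value of 0.04, with 5 (13.9%) wholly higher and 0 wholly lower. Without 30 min replicate 3 the median was 0.14, with 8 wholly higher and 1 wholly lower, where the background was 7.1% higher and 11.1% lower. Klf10, a TGF-β-induced factor that the clock also drives, had ratios of 2.17, 0.710 and 0.606 at 60 min, against 0.277, 0.297 and 0.224 at 30 min (log2 1.89 ± 0.60). Gadd45b, a stress-induced growth arrest gene, was higher by 0.43 ± 0.20 without overlap. Fos and Jun, the partners in AP-1, and Egr1 overlapped. Fos was at 4.34, 1.53 and 0.452, against 0.840, 1.79 and 4.29 at 30 min, which spans the same range at both times. Atf3, a stress-induced repressor, was at 2.05, 2.40 and 1.10, against 1.13, 1.11 and 1.44 at 30 min (log2 0.53 ± 0.32, adjusted p = 0.647). Among 37 chemokine and NF-kB genes the median was 0.01, with 19 above and 18 below 0. Il1r1, the interleukin 1 receptor, was at 1.40, 0.620 and 0.568, against 0.430, 0.567 and 0.443 at 30 min (log2 0.73 ± 0.30), a gap set mainly by replicate 1. Cxcl1, a neutrophil-attracting chemokine, was below all 3 sham arrays on all 6 arrays, at 0.216, 0.159 and 0.0737, against 0.0692, 0.365 and 0.245 at 30 min. Of the 30 hypoxia-inducible genes, 15 were above and 15 below 0, with 1 wholly higher and 1 wholly lower.

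Replicate 1 was the highest 60 min array for both metallothioneins and the acute phase gene Orm2. Mt2, a zinc-binding metallothionein, was at 1.60, 0.0515 and 0.0526 at 60 min, against 0.0532, 0.125 and 0.142 at 30 min. Mt1 followed it, at 1.72, 0.0930 and 0.0846, against 0.0807, 0.183 and 0.237 at 30 min. The sham arrays were at 1.23, 0.0789 and 1.69 for Mt2 and at 1.26, 0.137 and 1.60 for Mt1. Replicate 1 at 60 min and sham replicates 1 and 3 were thus high, and the other 5 ischemic arrays and sham replicate 2 low. Orm2, an acute phase plasma protein, was at 1.00, 0.113 and 0.107, against 0.132, 0.383 and 1.49 at 30 min. Of these 6 arrays the highest were 60 min replicate 1 and 30 min replicate 3, and sham arrays spanned 0.111 to 2.37. All 3 genes had arrays that overlapped (adjusted p = 0.863 for Mt1, 0.869 for Mt2 and 0.785 for Orm2), and the 24 acute phase genes had a median of -0.25, and 0.00 without 30 min replicate 3.

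Markers of liver cell types had list medians between -0.16 and 0.03. The median log2 value was -0.16 for 16 hepatocyte markers (13 below 0, 1 wholly lower), 0.00 for 13 Kupffer cell markers, -0.08 for 13 stellate cell markers, -0.05 for 14 endothelial markers, 0.01 for 10 neutrophil markers, -0.03 for 15 T and NK cell markers and 0.01 for 10 B and plasma cell markers. It was 0.03 for 9 cholangiocyte and 0.02 for 4 red blood cell markers, and only the hepatocyte median kept its sign under every alternative. It was -0.03 without 60 min replicate 3. The Kupffer cell median was 0.13 without 30 min replicate 3, with 11 of 13 above 0. Hepatocyte marker medians by array were -0.01, -0.26 and -0.50 at 60 min, against -0.23, -0.13 and -0.01 at 30 min. Kupffer cell marker medians spanned -1.04 to -0.18 at 60 min, against -0.93 to -0.28 at 30 min. Marco, a Kupffer cell scavenger receptor, was at 0.729, 0.245 and 0.233, against 0.208, 0.199 and 0.513 at 30 min, high in the same 2 arrays as Orm2. In whole tissue, fewer cells of a type and less RNA per cell cannot be told apart. Olfactory receptors have no known role in liver, and over 38 of them the median was 0.07, and 0.02 without 30 min replicate 3.

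After quantile normalization of the arrays most list medians were also nearer 0. They were -0.24 for fatty acid synthesis, -0.14 for fatty acid oxidation, -0.18 for the proteasome, -0.15 for mitochondrial and -0.18 for cytosolic ribosomal proteins, -0.17 for heat shock chaperones, -0.26 for protein translocation, -0.09 for the urea cycle and -0.11 for acute phase genes.

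**Figure D5:**
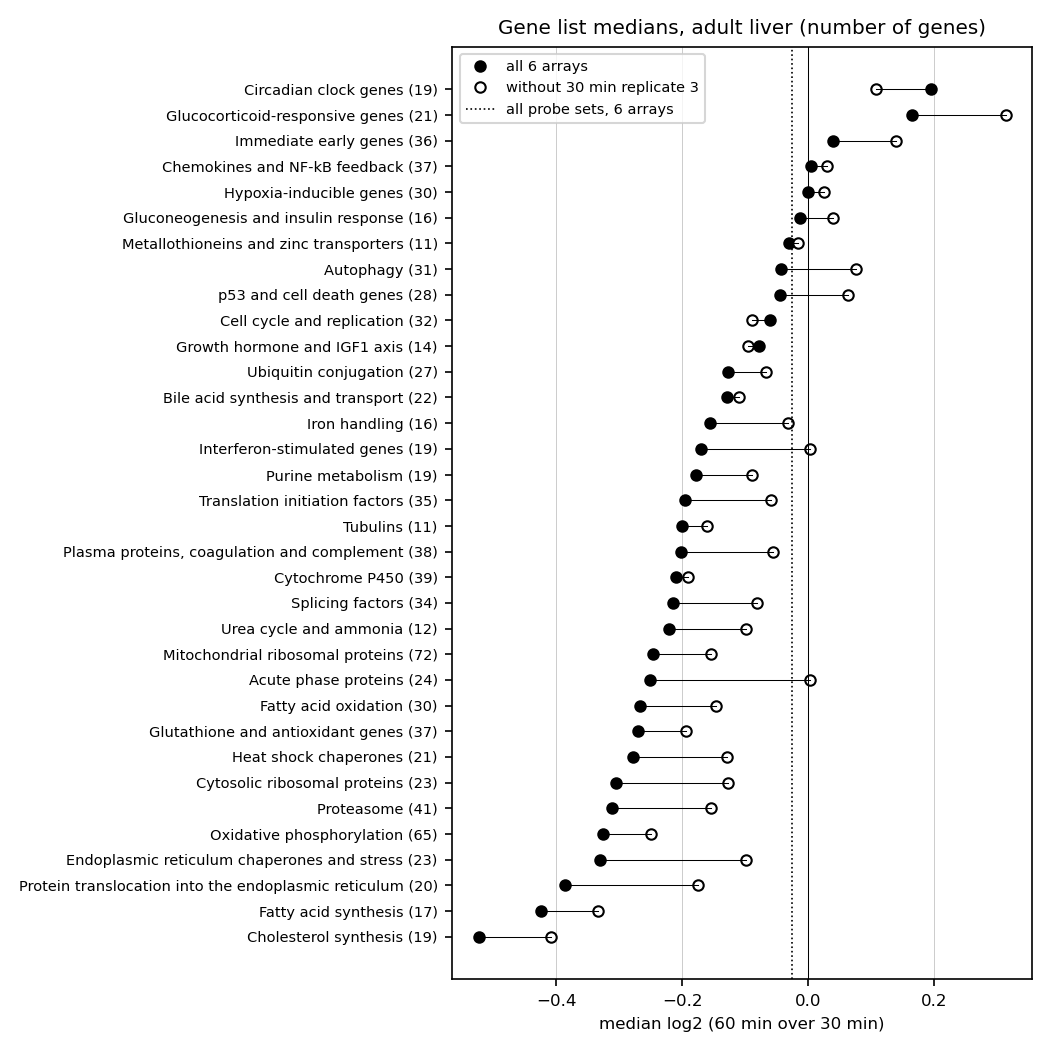
Median log2 value of 60 over 30 min (horizontal axis) of the 34 pathway lists, with the number of genes in brackets. Filled points use all 6 arrays, open points leave out 30 min replicate 3, and the dotted line is the median of all probe sets, -0.03. Lipid synthesis lists are lowest, at -0.52 and -0.42, and most list medians lie nearer 0 without that array. The 12 lists not described in the text have medians from -0.21 to -0.03.

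The same step of ischemia in young mice gave 0 of 26180 calls (0%), a lowest adjusted p of 0.618 and 1329 probe sets (5.08%) at an unadjusted p under 0.05, 763 higher (2.91%) and 566 lower (2.16%). Young arrays did not overlap between the times for 2687 probe sets (10.3%), 1472 higher (5.62%) and 1215 lower (4.64%). Oxidative phosphorylation genes had a median of -0.33 in adults, with 65 of 65 below 0, against 0.05 in young mice, with 49 of 65 above 0. Cytochrome P450 genes were at -0.21 in adults, and at 0.09 in young mice, with 30 of 39 above 0. Cholesterol synthesis was below 0 in both ages, at -0.52 in adult and -0.45 in young mice. Nr1d1 was at 1.81 ± 0.51 in adults, beside 1.35 ± 0.51 in young mice, and Nr1d2 at 1.28 ± 0.46 in adults, beside 1.27 ± 0.46 in young mice. Dbp was at 3.20 ± 0.96 in adults, beside 0.66 ± 0.96 in young mice, and Arntl at -1.04 ± 0.37 in adults, beside -0.10 ± 0.37 in young mice.

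The difference between the ages was tested directly. Of 26180 probe sets, 0 (0%) passed, the lowest adjusted p was 0.951, and 1053 (4.02%) had an unadjusted p under 0.05, with 347 (1.33%) above and 706 (2.7%) below 0. The adult minus young difference was 2.54 ± 1.35 for Dbp and -1.26 ± 0.59 for Igfbp1 (adjusted p = 0.951 for each). No member of any of the 44 lists passed. No gene was shown to be particular to the adults. Across probe sets the adult and young log2 values had Pearson's r = 0.25 over 26180 probe sets, which are not independent replicates. The 2 contrasts share no ischemic array.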

How the data were processed

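RNA of 24 mouse livers was measured on Affymetrix 3' arrays. The submitters' processing notes name RMA. The authors deposited ratios on a linear scale, as the file itself shows: the mean ratio of the 3 sham arrays of an age is 1 for each probe set, within 2e-07. Array brightness is not kept, so the number of arrays limits precision.

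RefSeq accessions were paired with symbols from a RefSeq table of GRCm38.p6, which named 15228 of 26180 probe sets and 14351 genes. The log2 of each ratio entered limma 3.58.1 under R 4.3.3, with 1 mean for each of the 8 groups over all 24 arrays, 16 residual degrees of freedom and Benjamini-Hochberg adjustment over all probe sets, two-sided, with calls at an adjusted p under 0.05. The fit was checked on simulated data.

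Members and the 44 gene lists were chosen with earlier results of these data known. Genes are named by rule: the 8 lowest p values in each direction among those whose arrays do not overlap, up to 3 members per pathway list and 2 per marker list with the widest difference, and a fixed set of stress and liver genes. One probe set stands for each listed gene, by type of accession and then its number. Lists are described by counts and medians, with no test. Alternatives were quantile normalization, centring, 1 probe set per gene, a block, a covariate, array weights, a robust prior, fewer groups and each array left out. Some genes that the rule names are not reported here.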

Additional observations from a re-analysis of the deposited data

How the results depend on the processing

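The count of genes called between adult 60 and 30 min was 0 under 14 of the 15 alternatives. With the 6 arrays of the contrast alone it was 1, Nr1d1 (adjusted p = 0.00812), and the cause was not tested. Leaving out single arrays gave 0 in adults, 0 to 7 in young mice and 0 to 7 for the difference between the ages, the 7 in both cases without young 30 min replicate 1. At an unadjusted p under 0.05 the adult count of 2063 was 407 after quantile normalization, 1178 with the title code number as covariate, 1257 with the 6 arrays alone, and 693 to 3984 with 1 array left out, lowest without 30 min replicate 3 and highest without 30 min replicate 1.

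The 60 and 30 min arrays carry the same first parts of the title code. Their deviations from the group means correlated at -0.36, 0.10 and -0.32 for arrays with the same first part, and at -0.12 to 0.38 for the others. Deviations within a group sum to 0, so these values depend on each other and cannot show whether the samples are paired. The main fit did not take the codes to pair them. With the first part as a replicate block, 0 genes were called in adults, 0 in young mice and 0 for the difference between the ages, and 2261 adult probe sets had an unadjusted p under 0.05.

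Of 75 genes followed, 65 kept their sign under all 15 alternatives. The others turned with 1 array left out, over ranges of -0.013 to 0.15 for Per3, -1.14 to 0.065 for Cxcl1, -1.16 to 0.47 for Fos, -0.42 to 0.14 for Egr1, -0.78 to 1.40 for Mt1, -0.91 to 1.56 for Mt2, -1.94 to 0.032 for Orm2, -0.21 to 0.77 for Marco, -0.016 to 0.45 for Hspa1a and -0.47 to 0.57 for Jun. Jun also turned to -0.10 after quantile normalization and to -0.015 with the title code number as covariate. The metallothioneins turned without 60 min replicate 1. For these reversals the cause was not tested. The count of 65 was largely set in advance. Many of the genes followed had arrays that did not overlap, and leaving out 1 array cannot turn their sign. Some alternatives, such as a robust prior or fewer groups, also leave each log2 value as it is. Of 660 list medians under the alternatives, 640 moved by less than the SD between arrays. This count shows little, because a robust prior, fewer groups, 1 probe set per gene and the block leave the medians unchanged. Leaving out 1 of 3 arrays could seldom move a median by that SD, which includes the arrays that stand apart. The number of arrays, 3 per time, limits the precision.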

Other observations

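Of the 20 genes with a symbol that differed by more than 1 on the log2 scale without overlap, 8 lie outside the rule for named genes and outside the clock list, and they were chosen after their values were seen. Higher at 60 min were Rgs16, Usp2, St3gal5 and Tns2. Rgs16, which speeds the switching off of G proteins, had ratios of 5.38, 0.835 and 1.73 in 60 min livers, against 0.578, 0.457 and 0.724 in 30 min livers (log2 1.78 ± 0.65). Usp2, a deubiquitinating enzyme with a strong daily rhythm in liver, had ratios of 0.977, 0.794 and 0.398, against 0.375, 0.221 and 0.290 at 30 min (log2 1.23 ± 0.56), and its other 2 probe sets gave 1.25 and 1.24. St3gal5, the synthase of the ganglioside GM3, was at 1.37, 0.748 and 0.673, against 0.407, 0.324 and 0.481 at 30 min (log2 1.15 ± 0.42). Tns2, tensin 2 of cell adhesions, was at 1.09 ± 0.39.

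Lower at 60 min were Grk5, Nat8f5, Abtb2 and Acsl3. Grk5, a kinase that desensitizes G protein-coupled receptors, had ratios of 0.271, 0.382 and 0.867, against 1.08, 1.60 and 1.73 at 30 min (log2 -1.69 ± 0.58). Nat8f5 was at -1.21 ± 0.50 and Abtb2 at -1.10 ± 0.35. Acsl3, which activates long-chain fatty acids, had ratios of 0.571, 0.589 and 0.454, against 0.840, 0.972 and 1.77 at 30 min. Its log2 value was -1.08 ± 0.31 and moved to -0.76 without 30 min replicate 3. The adjusted p was 0.629 for all 8, so none was called.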
